A study of Mus musculus with 86 samples.

Results

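Among 86 single cells of the embryonic mouse kidney, 46 passed a rule on the nephron progenitor gene Six2 and the epithelial gene Mal2. The 15 of them highest in mitosis transcripts are set here against the 15 lowest. Six2 encodes a transcription factor that keeps cap mesenchyme cells in the progenitor state. Cells were chosen by their measured Six2, Mal2 and mitosis gene values: a cell was taken if its Six2 RPKM (reads scaled to gene length and sequencing depth) was at least 1 and its Mal2 RPKM was under 100. Mal2 is an epithelial gene that removes cells of the ureteric bud: it left out 3 of the 49 cells with Six2 of at least 1. The cells were ranked by a score, the mean log2(RPKM + 1) of Cdc20, Plk1, Ccnb1, Aurka and Cenpe, and cut into 3 parts: the high side of 15 cells, a middle of 16 and the low side of 15. The score and the comparison use the same libraries, so every value below is a description of these cells.

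All cells came from wild-type metanephroi of 12.5 days post coitum embryos (Theiler stage 20), on a mixed background and with males and females together. Kidneys were pooled, dissociated with trypsin and captured on a Fluidigm C1 instrument, whose chambers were checked by microscope, and the cDNA was sequenced on an Illumina HiSeq2500. The high and low side share this genotype, age and pool, and the labels name no treatment. Because there is 1 pool, cells are not replicates, and no test, p-value or standard error is given.

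In the kidney of this age, Six2 cells of the cap mesenchyme both renew themselves and are induced to form nephrons by Wnt signals of the ureteric bud. Dividing cells build up the transcripts of mitosis genes through G2 and degrade many of their products as mitosis ends. Cyclin B with the kinase Cdk1 starts mitosis, Plk1 and the Aurora kinases shape the spindle, and the anaphase-promoting complex (APC/C) with its activator Cdc20 ends it. Many of these genes are known to share promoter elements: CCAAT boxes, bound by the factor NF-Y, and the CHR element, with the letters TTTGAA, bound by the MuvB complex.

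The promoters of 6 mitosis genes that stood high in the comparison, or gave the score, are printed because they show these shared elements. Each line holds the 120 bases before the start of the gene, 5′ to 3′ on the gene's strand, from RefSeq (GRCm38.p6), with TTTGAA (or its reverse complement TTCAAA) and CCAAT (or ATTGG) in capitals. Cdca3 lies at chr6:124830056-124830175, plus strand. Cdc20 lies at chr4:118437344-118437463, minus strand. Cdk1 lies at chr10:69352913-69353032, minus strand. Ccnf lies at chr17:24251410-24251529, minus strand. Ube2c lies at chr2:164769809-164769928, plus strand. Top2a lies at chr11:99024190-99024309, minus strand.
Cdca3: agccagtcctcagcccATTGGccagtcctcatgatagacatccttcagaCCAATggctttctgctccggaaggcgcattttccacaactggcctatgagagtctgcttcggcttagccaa
Cdc20: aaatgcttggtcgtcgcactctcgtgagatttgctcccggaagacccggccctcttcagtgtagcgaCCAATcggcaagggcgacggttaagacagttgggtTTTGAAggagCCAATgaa
Cdk1: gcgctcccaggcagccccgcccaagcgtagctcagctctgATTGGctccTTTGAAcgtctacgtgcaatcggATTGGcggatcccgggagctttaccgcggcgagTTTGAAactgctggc
Ccnf: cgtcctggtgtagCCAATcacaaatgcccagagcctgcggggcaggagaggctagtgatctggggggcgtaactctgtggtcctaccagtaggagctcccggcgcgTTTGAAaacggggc
Ube2c: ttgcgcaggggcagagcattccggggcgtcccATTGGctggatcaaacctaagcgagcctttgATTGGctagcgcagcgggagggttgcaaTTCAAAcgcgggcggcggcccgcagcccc
Top2a: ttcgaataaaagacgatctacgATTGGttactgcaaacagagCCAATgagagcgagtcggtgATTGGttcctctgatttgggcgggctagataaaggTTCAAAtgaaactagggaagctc
In Cdc20 a TTTGAA begins 18 bases before the start, in Cdk1 15, in Ccnf 14, in Ube2c (as TTCAAA) 29 and in Top2a (as TTCAAA) 23. The TTTGAA of Cdca3 begins at base 31 after the start and is outside the printed stretch, which holds an ATTGG at 104 and a CCAAT at 71 bases before the start.

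These letters were common among the mitosis genes as a group. Of the 76 mitosis genes outside the score that were higher in the high side (below), 61 matched a RefSeq promoter by gene ID, with 68 windows from 250 bases before to 50 after a start. TTTGAA on either strand was in 44 of the 68 windows (64.7%), against 17.9% of all 32851 windows of the table. CCAAT on either strand was in 49 (72.1%, against 37.4%), and both motifs were in 37 (54.4%, against 6.95%). The related letters TTCGAA, which are their own reverse complement, were in 6 windows (8.82%, against 1.56%). None of the motifs searched holds another, and a match is a string of letters, not a measured binding site.

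For S phase genes, TTTGAA was in 3 of 34 promoter windows (8.82%) and CCAAT in 19 (55.9%, against 37.4% of all). The E2F-type letters TTTCCCGC were in 6 of those 34 (17.6%, against 2.94% of the 68 mitosis windows and 1.07% of all) and TTTGGCGC in 5 (14.7%, against 4.41% and 0.514%), each on either strand. For nephron progenitor genes, TTTGAA was in 4 of 32 windows (12.5%) and CCAAT in 7 (21.9%). Genes absent from the promoter table, Cdc25c and Ccna2 among them, are named only.

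The score ran from 8.17 to 0.02 over the 46 cells. Its lowest, median and highest values were 5.98, 6.58 and 8.17 in the high side, 4.00, 4.77 and 5.84 in the middle and 0.02, 0.76 and 3.35 in the low side. The cells nearest to the high border scored 5.98 inside and 5.84 outside, and those nearest to the low border 3.35 inside and 4.00 outside. Ccnb1, cyclin B1, gave 167, 478 and 1143 RPKM in the high side and 0, 0.832 and 135 in the low side, and Plk1 gave 8.85, 53.1 and 390.2 against 0, 0 and 86.3. These 5 genes chose the cells, so their gap is set by the rule.

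**Figure D1:**
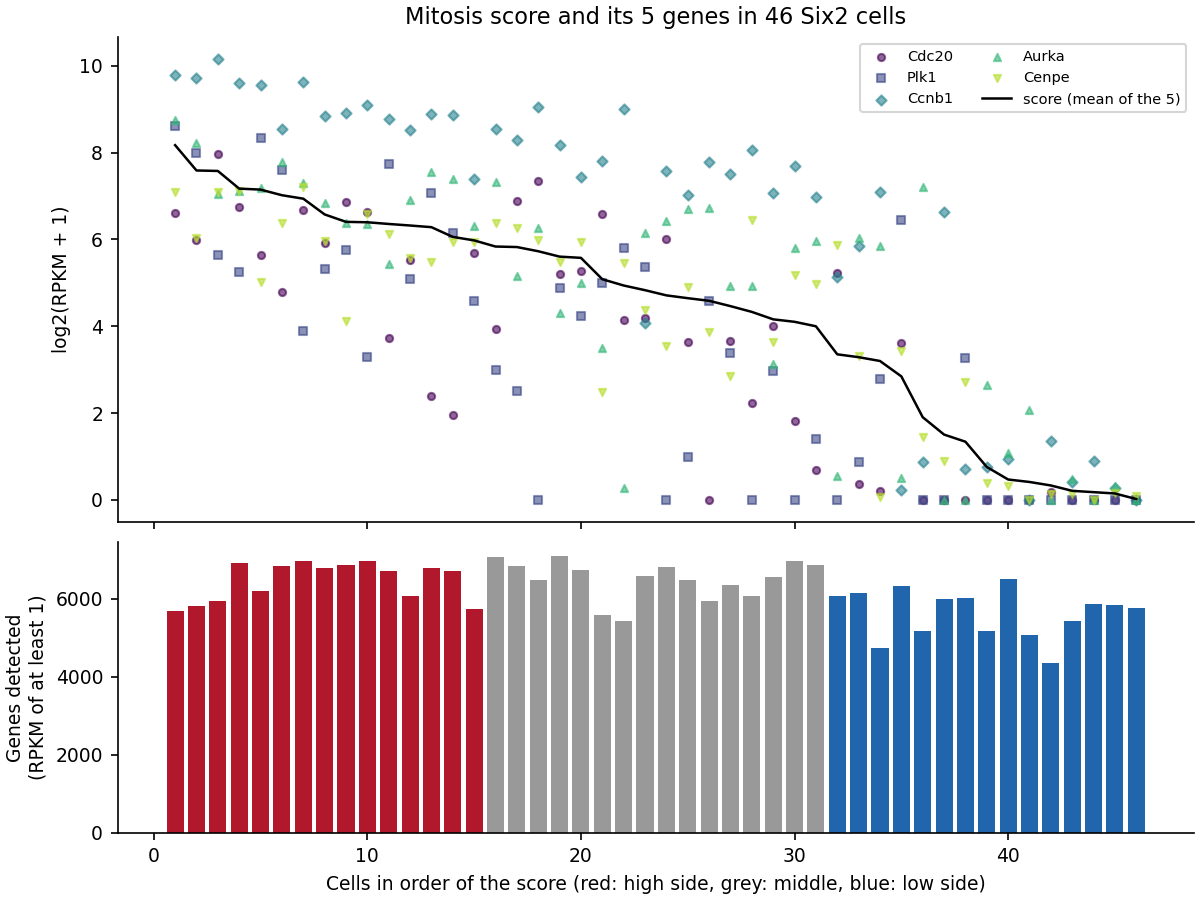
The 46 Six2 cells in order of the score on the x axis; the upper panel shows log2(RPKM + 1) of the 5 score genes (points) and their mean (line), the lower panel the number of genes detected in each cell (bars). The line falls from 8.17 to 0.02 with no wide step at the high border (5.98 against 5.84), and the low side holds the cells with the fewest genes.

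The sides also differed in how many genes were detected, at an RPKM of at least 1. The lowest, median and highest numbers were 5679, 6717 and 6964 in high cells, 5436, 6559.5 and 7100 in middle cells and 4342, 5847 and 6493 in low cells. Of the low cells, 6 had fewer genes than any high cell, and 9 high cells had more than any low cell. Read totals per cell are unknown, and the closing section gives the values with this gap made smaller. Six2 itself did not follow the score: it was at 14.1, 35.7 and 68.1 RPKM in the high side and 5.94, 34.5 and 88.9 in the low side.

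The label of the cells fits their genes in part. Of 41 nephron progenitor genes in the table, the lowest, median and highest number detected per cell was 20, 29 and 35 in the high side and 22, 27 and 31 in the low side. But 31 of the 46 cells also had Foxd1, the transcription factor that marks stroma progenitors, and Six2 exceeded Foxd1 in 38 of 46. The cells are therefore called Six2 cells here. Markers of blood, macrophages and endothelium were few in the table. The single macrophage gene present reached 109 RPKM in the high side and 0.108 in the low side. The single erythroid gene was detected in no high cell and reached 14.8 RPKM in the low side. The 3 endothelial genes summed to 0, 21.1 and 42.1 RPKM (lowest, median, highest) in the high side and 0, 39.6 and 129 in the low side, and their part in the results was not tested. No doublet caller was run.

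The labels give each cell a number and no plate or date, and the numbers were not spread evenly over the sides. Of the 46 cells, 12 of 15 high, 6 of 16 middle and 5 of 15 low cells were numbered above the median of 50. Values within each range of numbers are given with the lists below. What the numbers stand for is not stated in the labels.

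Across all genes, differences were about as frequent in one direction as in the other by the ratio of means. Of 7407 genes with a mean of at least 5 RPKM over the 46 cells, 820 (11.1%) were higher in the high side, by a log2 ratio of (mean RPKM + 1) of at least 1, and 829 (11.2%) were lower by as much. The median log2 ratio of all genes was -0.03. A mean over 15 cells can be set by 1 cell, so the difference of the mean log2(RPKM + 1) was taken as a second measure: 656 of the 820 and 272 of the 829 passed 1 on both. By the second measure alone, 1449 genes were higher and 328 lower. These shares are the background against which the lists are read.

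Most mitosis genes outside the score were higher in the high side too. Of 95 compared, 76 were higher in the high side, all 76 by both measures, 1 was lower and 18 were neither, with a median log2 ratio of 2.12. Of all genes, 11.1% were higher; the 95 genes were read from the cells that the score had chosen, so their count is no independent support. Of the 95, 57 were detected in every high cell and 42 in at most 5 low cells. The median log2 ratio was 1.93 among cells numbered above 50 (12 high, 5 low cells) and 2.32 among those under it (3 high, 10 low).

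**Figure D2:**
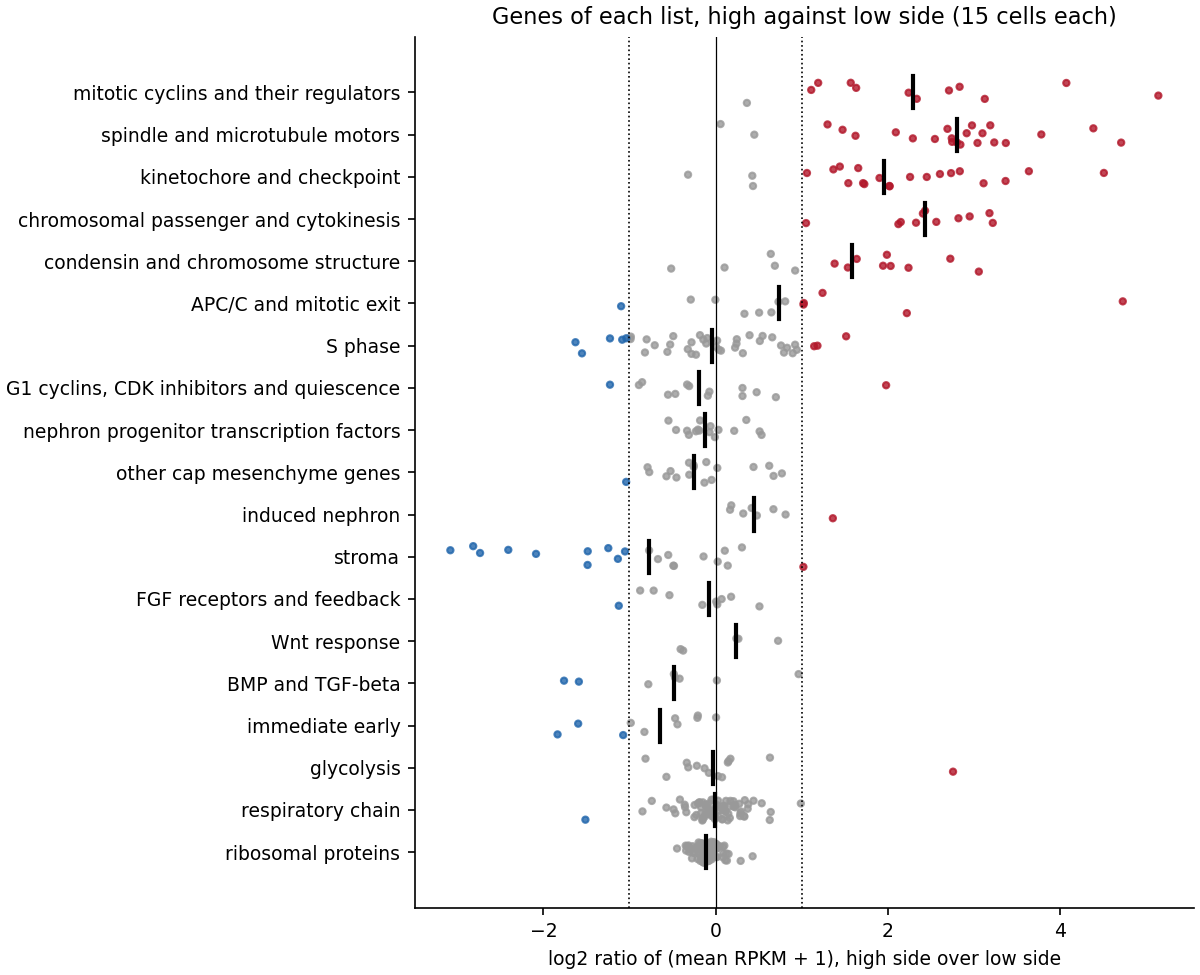
Each point is 1 gene of a list on the y axis, with its log2 ratio of (mean RPKM + 1), high side over low side, on the x axis; black bars are list medians, dotted lines mark 1 and -1, red genes are higher and blue genes lower. The 6 mitosis lists lie to the right with medians from 0.73 to 2.80, progenitor and ribosomal genes lie near 0, and 10 stroma genes lie left of -1.

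Cdca3 was the only gene of 7407 (0.0135%) whose cells did not overlap between the sides, apart from the score gene Ccnb1. It is not among the 95 listed mitosis genes and was picked out by these values. Cdca3 (gene 14793, chromosome 6, 124780194 to 124783719 in the authors' table, mm9) encodes an F-box protein known as trigger of mitotic entry. Its lowest, median and highest values were 52.7, 90.6 and 331 RPKM in the high side and 0, 0.480 and 15.1 in the low side, a log2 ratio of 5.33. In the middle it was at 11.7, 64.1 and 239.9 RPKM. In Ccnf, Ube2c, Cks2 and Troap, 14 of 15 high cells lay above every low cell.

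Of the mitotic cyclins and their regulators, 11 of 12 compared were higher, with a median log2 ratio of 2.29. Ccnf, cyclin F, was at 2.25, 44.2 and 92.1 RPKM in high cells and 0, 0.0983 and 4.24 in low cells (log2 ratio 5.14). It was detected in 1 low cell, and 14 of 15 high cells lay above the highest low cell. Cdc25c, the phosphatase that activates Cdk1, was at 39.2, 151 and 401 against 0.915, 1.67 and 72.9 RPKM (ratio 4.07). Cdk1 itself was detected in all 30 cells and overlapped more: 50.9, 153 and 420.0 against 1.26, 4.21 and 282 RPKM (ratio 2.24). Ccnb2, cyclin B2, ran from 1.11 to 650.4 RPKM in high cells, a wider range than that of Cdk1, with a median of 130.0 against 0.491 in low cells. The exception was Mybl2, a transcription factor of the same program, with a ratio of 0.36 and detection in 8 high and 3 low cells.

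Of the 6 mitosis lists, spindle genes held the highest median, 2.80, with 21 of 23 compared higher. Nusap1, a microtubule-binding protein of the spindle, was at 11.5, 153 and 280.2 RPKM in high cells and 0, 0.241 and 48.6 in low cells (ratio 4.71), with 13 high cells above every low cell. Kif2c, a kinesin that depolymerises microtubules, was at 2.91, 47.2 and 239 against 0, 0.112 and 57.6 (ratio 3.78). Troap, which associates with the spindle, reached an RPKM of 1 in no low cell, and 14 of 15 high cells reached it (0.170, 16.5 and 117 RPKM, ratio 4.39). The 2 that were neither were Numa1 (ratio 0.06) and Stmn1 (0.45), both detected in most cells of either side; Stmn1 had a median of 1577 RPKM in high and 1039 in low cells.

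**Figure D3:**
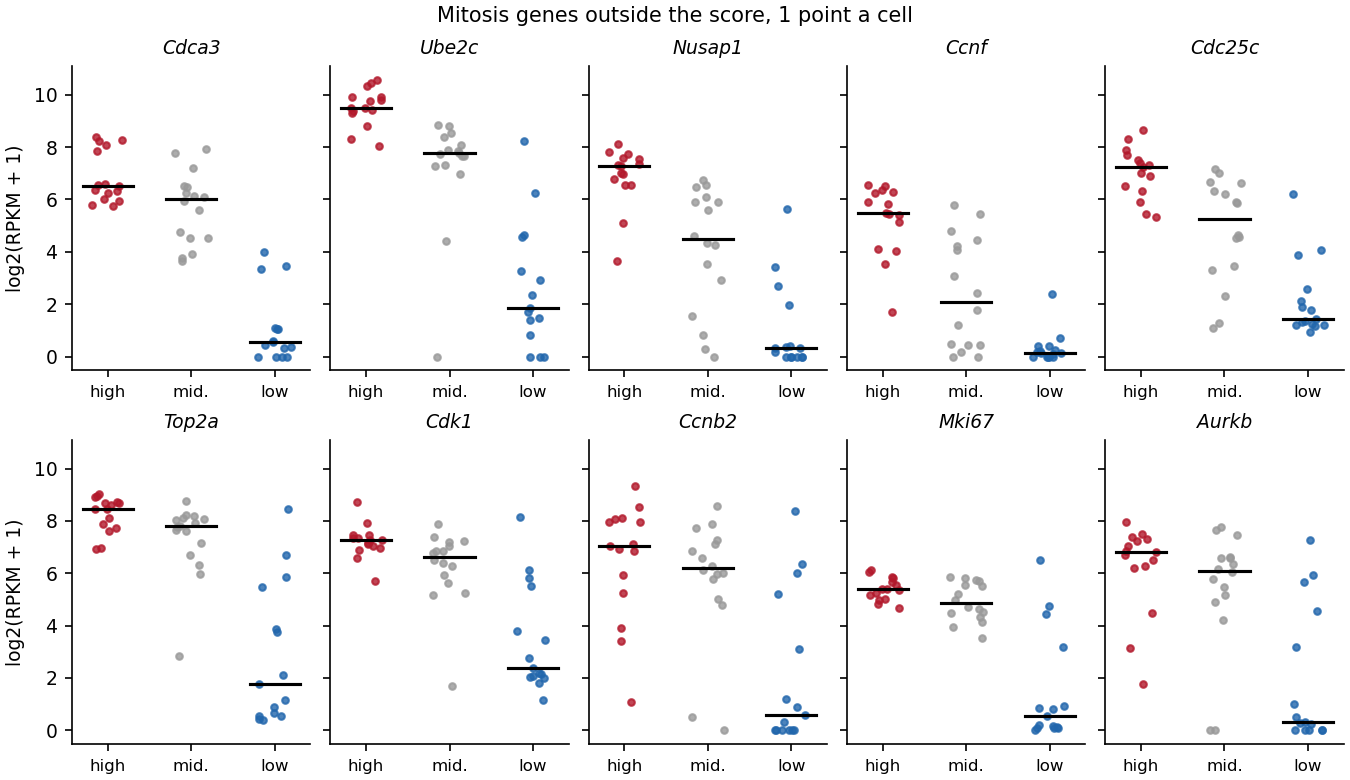
log2(RPKM + 1) of 10 mitosis genes outside the score in each cell of the high side (15), the middle (16) and the low side (15); black bars are medians. Cdca3, which is not one of the 95 listed mitosis genes, is the gene without overlap between the high and low side. The low cells below every high cell number 14 in Top2a, 13 in Mki67, 12 in Cdk1, 10 in Aurkb and 9 in Ccnb2.

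Of the kinetochore and checkpoint genes, 19 of 22 were higher (median 1.96). Bub1b, the checkpoint protein BubR1, was at 1.86, 56.9 and 162 RPKM in high cells and 0, 0.134 and 37.7 in low cells. Cenpi was absent from most low cells, being detected in 1 of them, against 10 high cells (ratio 4.51). Zw10 (-0.32) and Cenpt (0.43) were among the 3 that were neither.

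All 11 chromosomal passenger and cytokinesis genes compared were higher (median 2.43), among them Aurkb (2.41), Cdca8 (3.22), Birc5 (2.12) and Anln (3.18). Aurkb, the kinase of the passenger complex, was at 2.41, 110.2 and 249 RPKM in high cells and 0, 0.237 and 152 in low cells, so that only 4 high cells exceeded every low cell. Kif23, a kinesin of the central spindle, was detected in all 15 high cells and in 3 low cells (70.3 against 0 RPKM in the median). Plk4, the kinase that starts centriole duplication, had the smallest ratio of this list, 1.05, and 1 low cell at 95.9 RPKM lay above all high cells.

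Condensin and chromosome genes were higher in 9 of 14 (median 1.59). Top2a, the topoisomerase that untangles chromosomes, was at 119.7, 349.7 and 526 RPKM in high cells and 0.307, 2.41 and 349 in low cells (ratio 3.06). The proliferation marker Mki67 was at 24.7, 40.9 and 68.6 against 0, 0.476 and 89.0 RPKM (ratio 2.03), and its highest value of all 30 cells was in a low cell. Lmnb1, a lamin, had a ratio of -0.52.

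The APC/C list was mixed: 10 of 13 ratios lay above 0, and the core subunits Anapc4 and Cdc27 held its lowest ratios. Ube2c, the E2 enzyme of the complex, was at 259.8, 727 and 1509 RPKM in high cells and 0, 2.59 and 299.5 in low cells (ratio 4.73), and the inhibitor Fbxo5 had a ratio of 2.22. Of 13 compared, 5 were higher, 7 neither and 1 lower (median 0.73). The lower one was the core subunit Anapc4 (0, 16.0 and 117 against 0, 22.2 and 224 RPKM, ratio -1.10), with a difference of mean log2 of -0.69. Another core subunit, Cdc27, had a ratio of -0.29.

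The genes ranked highest by the naming rule, which took the smaller of the 2 measures, were Cdca3, Ccnf, Ube2c, Nusap1, D2Ertd750e, Cdc25c, Kif2c, Fam64a, Bub1b, Troap, Kif23 and Pbk. D2Ertd750e is given here by its symbol only, and the others are known mitosis genes. Fam64a, also called Pimreg, was at 2.18, 108 and 259.7 RPKM in high cells and 0, 0.529 and 85.6 in low cells. D2Ertd750e was at 0, 44.7 and 134 against 0, 0 and 24.6 (ratio 4.09). Pbk, a mitotic kinase, was at 0, 188 and 453 against 0, 0.564 and 168 (ratio 3.27).

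Over all 46 cells, the rank correlations with the score that were highest among genes of at least 10 RPKM were those of Cdca3 (0.87), Ube2c (0.87), Nusap1 (0.86), Cks2 (0.85) and Cenpf (0.84). The cells share a pool and differ in genes detected, so these are descriptions. Cks2, a small subunit of Cdk complexes, was at 229.7, 485 and 833 RPKM in high cells and 0, 32.5 and 264 in low cells. Its partner Cks1b was detected in all 30 cells and had a ratio of 1.11.

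The count of S phase genes on each side depended on the measure. By the ratio of means, 3 of 42 compared were higher, 5 lower and 34 neither (median log2 ratio -0.05), while 11.1% and 11.2% of all genes passed in each direction. By the difference of mean log2, 1449 of all 7407 genes were higher and 328 lower, with a median of 0.28. Of the S phase genes, 15 were higher and 2 lower by that measure (median 0.57), and 33 of 42 lay above 0. Among the lower were Ccne1, cyclin E1 (ratio -1.63, difference of mean log2 0.02), Cdt1, which licenses origins (-1.55), and Mcm4, a helicase subunit (-1.23). Among the higher were Ung (1.52), Usp1 (1.18) and Rrm1 (1.14). By cell number the median ratio was 0.21 above 50 and -0.25 under it.

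The mean level of the S phase genes, in log2(RPKM + 1), varied widely between cells. Its lowest, median and highest values were 2.88, 4.56 and 5.03 in the high side, 3.44, 4.76 and 6.23 in the middle and 1.78, 3.43 and 5.57 in the low side. The low side was spread widest: 3 low cells lay above every high cell and 5 lay below every high cell. In the middle, 7 of 16 cells lay above every high cell. The low side held cells with many S phase transcripts as well as cells with few of either kind.

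Single low cells show the 2 kinds. Cell 49 scored 0.76, but its S phase level was 5.52 and its mitosis level outside the score was 4.11, the highest of the low side. It had 349 RPKM of Top2a, 282 of Cdk1 and 624 of Rrm2, a subunit of ribonucleotide reductase. Cells 34 and 63 were alike in level, with S phase levels of 5.55 and 5.57. Cell 41 was at 1.78 and 1.12 for S phase and mitosis genes, the lowest in both, and had the fewest detected genes of the 46, 4342. These cells were chosen after their values were seen.

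**Figure D4:**
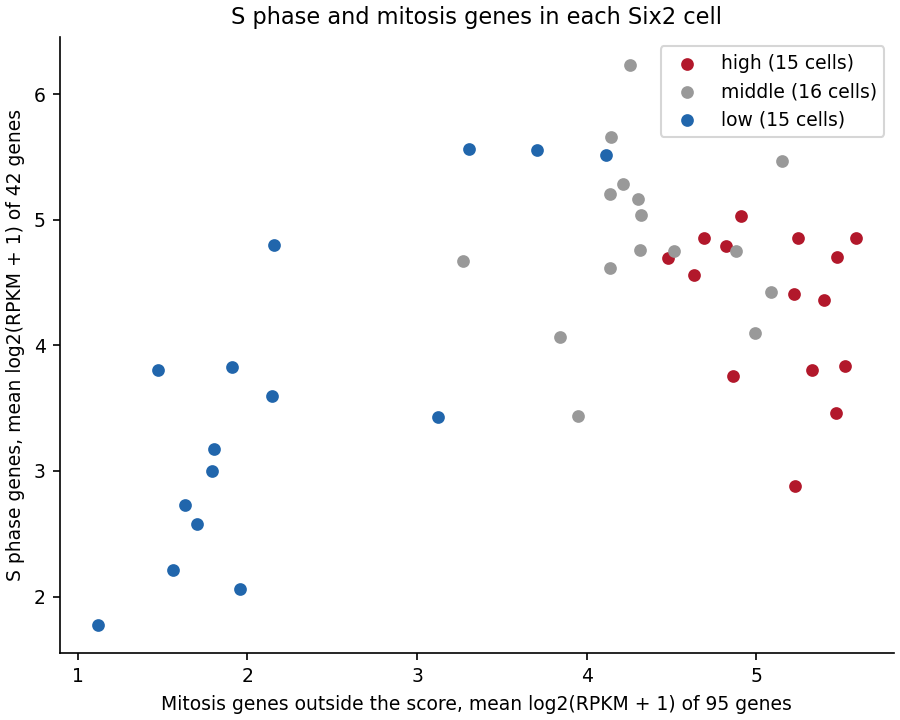
Mean log2(RPKM + 1) of 95 mitosis genes outside the score (x axis) and of 42 S phase genes (y axis), 1 point for each of the 46 Six2 cells, coloured by side. The high cells lie at the right between 2.88 and 5.03 on the y axis, the highest S phase levels are in middle cells (up to 6.23), and the low cells reach from 1.78 to 5.57.

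Genes of G1 and of cell cycle exit were 1 higher, 1 lower and 12 neither of 14 compared (median -0.20). Among all genes, 11.1% were higher and 11.2% lower. Rbl1, the pocket protein p107, was higher (0, 1.80 and 54.4 against 0, 0.0705 and 23.2 RPKM, ratio 1.98). Ccnd2, cyclin D2, was lower, at 8.40, 64.1 and 224 RPKM in high cells and 2.09, 144 and 469 in low cells (ratio -1.23). Ccnd3 lay in the same direction without reaching the threshold (-0.89) and Ccnd1 did not (0.31). The inhibitor Cdkn1c, p57, was detected in all 30 cells at 309 RPKM in the high and 447 in the low median (ratio -0.47). Cdkn1a, p21, was listed at 0 in every high cell and reached 9.19 RPKM in the only low cell where it was detected.

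Nephron progenitor genes differed little between the sides. Of 34 compared, none was higher and 1, Bmp7, was lower, with a median log2 ratio of -0.18, while 11.1% and 11.2% of all genes passed in each direction. With the score freed of genes detected, 4 were higher and 2 lower. The mean level of the list ran from 3.04 to 4.91 in high cells and from 2.98 to 4.77 in low cells, in log2(RPKM + 1). By cell number the median was 0.16 above 50 and -0.43 under it.

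Of the progenitor transcription factors, 16 were compared and none passed in either direction. Eya1, the cofactor of Six2, was at 1.53, 77.8 and 110.0 RPKM in high cells and 0, 31.3 and 216 in low cells (ratio 0.22). Sall1, a zinc finger factor of the cap, was at 4.65, 52.7 and 122 against 4.87, 83.8 and 176 (-0.46). Wt1 was at 0.593, 31.4 and 172 against 18.2, 49.5 and 256 (-0.55), and Osr1, the factor of the earliest kidney mesenchyme, at 0, 9.46 and 174 against 0, 16.9 and 102 (-0.18). In each of these 4 genes the ranges of the sides overlapped over most of their length. Mycn, which is known to drive growth of progenitors, was detected in 7 high and 10 low cells (ratio -0.19). Phf19, a Polycomb-associated protein, was detected in 10 high and 4 low cells, with a ratio of 0.51 and a difference of mean log2 of 1.56.

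Cited1, which marks the least induced cap cells, spanned a wide range in both sides. It was detected in 8 of 15 high cells and 9 of 15 low cells, at 0, 8.45 and 448 RPKM in the high side and 0, 22.6 and 420.5 in the low side (ratio -0.33). With the score freed of its relation to genes detected, the ratio of Cited1 turned to 1.11. The highest value in the high side was in the cell with the highest score of all, cell 81. Cited1 and Foxd1 were detected together in 6 high and 7 low cells.

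Other cap genes gave 0 higher and 1 lower of 18. Crym, a thyroid hormone-binding crystallin, was detected in all 30 cells at 89.2, 470.5 and 917 against 16.9, 446 and 1461 RPKM (-0.31). Gdnf, the ligand that draws the ureteric bud into the mesenchyme, was detected in 8 high and 7 low cells (ratio -0.77). Bmp7, a survival signal of the cap, had a ratio of -1.04 and a difference of mean log2 of -0.43, with detection in 8 cells of each side; without the highest cell of each side the ratio was -0.94. Itga8 (0.67) and Tmem100 (0.77) lay on the other side of 0, and Cdh2 was at -0.79. The direction of Tmem100 turned, to -1.14, when the score was freed of its relation to genes detected.

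**Figure D5:**
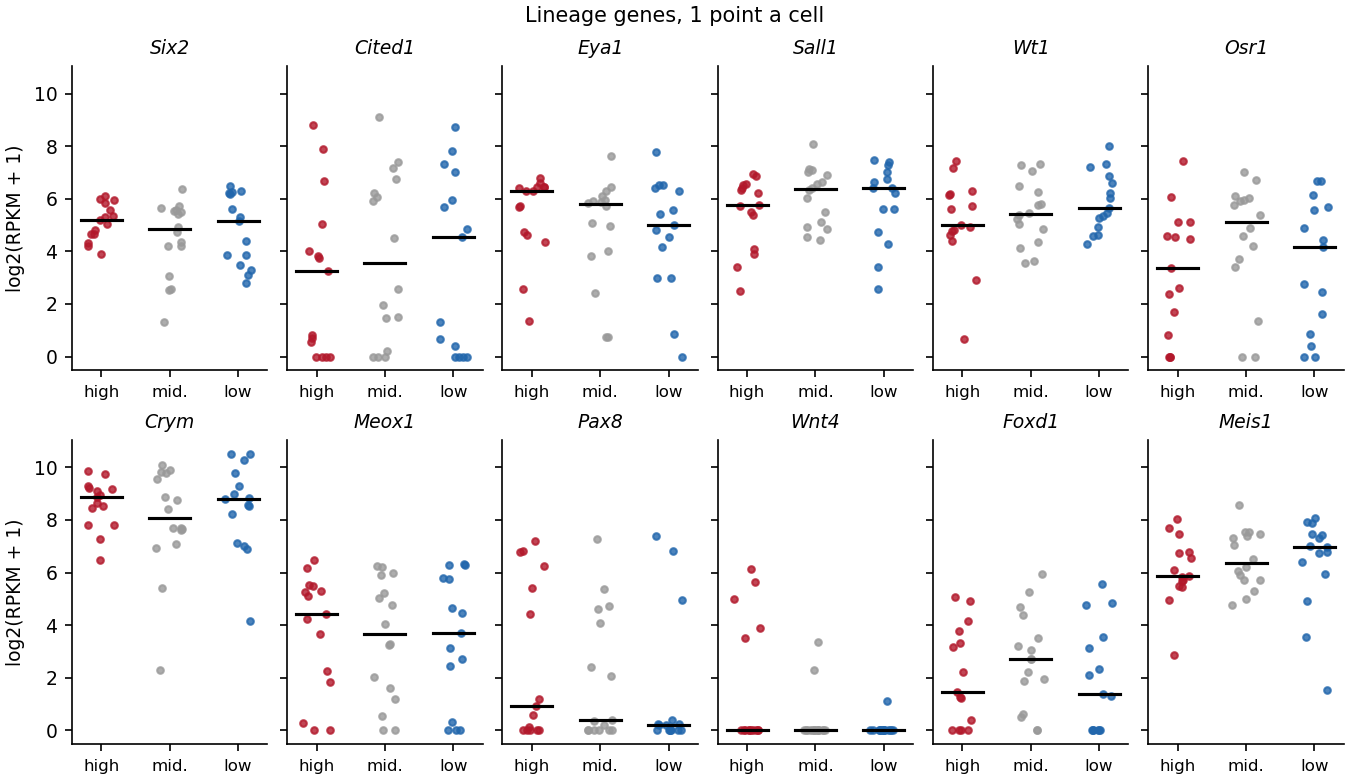
log2(RPKM + 1) of 12 lineage genes in each cell of the high side (15), the middle (16) and the low side (15); black bars are medians. The progenitor genes overlap over most of their range, Cited1 runs from 0 to above 8 in each part, and 5 high cells but no low cell have Wnt4 above 3 RPKM.

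Of 22 induced nephron genes in the table, 4, 6 and 13 were detected per high cell and 2, 4 and 11 per low cell (lowest, median, highest). Wnt4 of at least 3 RPKM together with Pax8 and Jag1 of at least 10 was found in 4 high cells, 1 middle cell and no low cell. Of 8 compared, 1 was higher (Hey1, a Notch target, 1.36, with a difference of mean log2 of 0.79) and none lower, with a median of 0.45. Among all genes, 11.1% were higher and 11.2% lower. By cell number the median was 0.15 above 50 (12 high, 5 low cells) and 1.4 under it (3 high, 10 low). Wnt4 (gene 22417, chromosome 4, 136833550 to 136852694, mm9), the signal that drives the mesenchyme to epithelium, had a mean under 5 RPKM and was not among these 8. It was detected in 5 of 15 high cells (exact binomial 95% interval 11.8 to 61.6%, counting error only) and in 1 of 15 low cells (0.169 to 31.9%), at up to 69.4 and 1.17 RPKM. These intervals do not cover other pools, because the cells are of 1 pool and are not replicates. Pax8, which acts with Pax2 in the forming nephron, was detected in 7 high cells and 3 low cells (ratio 0.67). Its ratio was 3.11 among cells with Six2 above Foxd1 and 0.15 with the score freed of genes detected.

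In 4 of the 5 high cells with Wnt4, other induction genes were present too. Cell 43 had 69.4 RPKM of Wnt4, 108 of Pax8 and 42.4 of the Notch ligand Jag1. Cell 79 had 31.2, 113 and 75.2, cell 56 had 14.0, 75.0 and 71.6, and cell 76 had 10.3, 144 and 31.1 RPKM of the same genes. The remaining cell, 54, had 48.6 RPKM of Wnt4 but 0.495 of Pax8 and 0.118 of Jag1. The 4 cells scored between 6.06 and 6.40, in the lower part of the high side.

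Low cells with Pax8 had little or no Wnt4. Cells 25 and 52 had both Pax8 (168 and 29.8 RPKM) and Jag1 (42.6 and 98.7), with Wnt4 listed at 0, and cell 69 had 112 of Pax8 with 1.17 of Wnt4. Lhx1, the renal vesicle factor, was detected in 3 high and 2 low cells at no more than 6.77 RPKM. Pairs and cells were singled out after the values were seen, and 15 cells a side leave wide intervals.

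Of 21 stroma genes compared, 10 were lower in the high side (5 by both measures) and 1 was higher, with a median of -0.77 against -0.03 for all genes, of which 11.2% were lower. The median was -0.74 among cells numbered above 50 and -0.77 under it. The lower genes were fibroblast-type genes such as Pdgfra, a growth factor receptor (-3.08), Postn, a matrix protein (-2.81), Pdgfrb (-2.73), Dcn, decorin (-2.41), Col3a1, a collagen (-2.08), and Sfrp1 (-1.13). Foxd1 was not among them (0, 1.73 and 32.2 against 0, 1.60 and 46.9 RPKM, ratio -0.14, detected in 10 and 9 cells), nor was Meis1 (-0.49) or the retinoic acid enzyme Aldh1a2 (0.31).

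These values came from part of the low cells, and their number differed by gene. Pdgfra was at 0, 0.0567 and 4.49 RPKM in high cells and 0, 0.147 and 66.5 in low cells: its median was near 0 on either side, and 6 low cells lay above every high cell. Col3a1 was detected in 4 high and 9 low cells, and Postn in 3 and 5. The mean level of the stroma list was above 3 in 5 of 15 high, 9 of 16 middle and 8 of 15 low cells. No high or low cell had a level between 2.10 and 3.07, but the middle cells 10 and 91 did, at 2.28 and 2.69. The low cells above 3 had a median Six2 of 13.4 RPKM against 47.6 in the other low cells, and the high cells above 3 had 27.1 against 39.3.

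The mural gene Rgs5, of pericytes, was detected in 4 high and 6 low cells (ratio -2.85, highest values 111 and 719 RPKM). The 8 mural genes of the table summed to 0.130, 7.00 and 113 RPKM in high and 0, 17.9 and 735 in low cells, and their part in the result was not tested. Epithelial genes were 1 higher and 2 lower of 4, while 11.1% and 11.2% of all genes passed in each direction. Hoxb7 was higher (12 against 5 cells, 1.21), and Sox9 (-2.06) and Wfdc2 (-1.06) were lower. Wfdc2 was at -0.07 without the highest cell of each side.

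The genes lowest in the high side by the naming rule were of no single list: Rraga, Clptm1l, Ldb2, Lhpp, Plk2, Mtpap, Hoxd12, Ift52, Egr1, Necap1, Pcdh18 and Gstm1. Rraga, a small GTPase that recruits mTORC1 to lysosomes, was at 0, 1.05 and 20.3 RPKM in high cells and 0, 20.1 and 182 in low cells (ratio -3.57). Plk2, a Polo-like kinase known from G1, was at 0, 5.63 and 55.7 against 0, 89.4 and 401 (-2.82), the opposite direction from Plk1. Egr1, an immediate early gene, was at 0, 24.8 and 241 against 0.814, 138 and 1096 (-1.83). Hoxd12 was detected in 5 high and 12 low cells, and Ift52, a cilium transport protein, in 6 and 12. Each of the 12 was under an RPKM of 1 in some cells of both sides, and between 4 and 8 low cells lay above every high cell.

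More evenly expressed genes gave smaller differences in that direction. The lowest rank correlations with the score were those of Rbm5, an RNA-binding protein (-0.53), Atp5e (-0.48), Pdcd4 (-0.48), Spin1 (-0.47) and the septin gene Septin2 (-0.47), whose symbol the authors' table holds as a date. Rbm5 was detected in all 30 cells at 34.2, 71.7 and 218 RPKM in high and 84.9, 176 and 360.4 in low cells (ratio -1.06). Pdcd4, an inhibitor of translation, was at 14.3, 57.3 and 108 against 18.6, 112 and 444 (-1.29), with 8 low cells above every high cell.

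Signalling and housekeeping lists are given beside the shares of all genes, 11.1% higher and 11.2% lower. FGF receptors and feedback genes were 0 higher and 1 lower of 10, Wnt response genes 0 and 0 of 5, and BMP and TGF-beta genes 0 and 2 of 8 (Bmper -1.76 and Bmp4 -1.59, with -0.99 and -0.44 without the highest cell of each side, under the threshold). Immediate early genes were 3 lower of 10 (median -0.65). Glycolysis genes were 1 higher of 14, Pfkm (2.76), and respiratory chain genes 1 lower of 77, Cox6b2 (-1.51). None of 78 ribosomal protein genes passed in either direction, and their median ratio was -0.11.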

How the data were processed

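Single-cell RNA-seq of 86 cells from 1 pool was used. Per the file headers, the authors deposited RPKM values of 12360 genes, kept where counted above a low limit in a few cells. The tools TopHat 1.4.1 and DESeq and the build mm9, whose roles are not given, are named per the submitters' processing notes. RPKM values hide the read totals, so depth per cell is unknown and no detection limit is given; 3458 to 7100 genes were detected per cell. A second deposited table of 450 genes in 35 cells holds RPKM and a signed fold. The fold is a score of the authors for Six2-only cells against cells with Six2 and Cited1, and was not used for the comparison. The table writes 19 symbols as dates, which were read by gene ID.

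Sides were compared by the log2 ratio of (mean RPKM + 1), with the difference of mean log2(RPKM + 1) beside it, over genes with a mean of at least 5 RPKM. A log2 ratio of at least 1 or at most -1 counted as higher or lower. No test was made. The level of a list is the mean log2(RPKM + 1) of its compared genes. Named were the 12 highest and 12 lowest genes by the smaller of both measures (mean of at least 10 RPKM, detected in 50% of cells), the 2 highest and 2 lowest of each list, the 5 highest and 5 lowest rank correlations with the score, and fixed lineage genes. The members and gene lists were chosen with earlier results of these data known. Alternatives were the measure, pseudocount, filter, score, cell rule and cells of few genes. Promoters are RefSeq, GRCm38.p6; gene coordinates are mm9. Python 3.11.15, numpy 2.4.6, pandas 2.3.3, scipy 1.17.1 and matplotlib 3.10.9 were used. The ratio was also run on values shuffled over the cells with known folds put in, which checks its arithmetic only.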

Additional observations from a re-analysis of the deposited data

How the results depend on the processing

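The mean of log2 values gave 1449 genes higher and 328 lower in place of 820 and 829, with the median of all genes at 0.28 in place of -0.03, the median of mitosis genes outside the score at 3.04 and that of S phase genes at 0.57; the cause was not tested. Without a filter on low values, 1630 genes were higher and 1784 lower, and with a mean of at least 10 RPKM there were 495 higher and 441 lower, since more or fewer genes were compared. Cutting the cells at the median score gave 462 higher genes and a mitosis median of 1.30, with 23 cells a side. With the score freed of its relation to genes detected, the gap in genes detected was 54 in place of 870, the mitosis median was 1.44, and 68 of 95 mitosis genes were higher. An alternative chosen after seeing the data kept the 9 low cells with at least as many genes as the lowest high cell: 74 of 95 mitosis genes were higher, and 11 of 21 stroma genes lower. Dividing each score gene by its SD gave the same sides. Over the 12 alternatives the median ratio ran from 1.30 to 3.04 for mitosis genes, from -0.25 to 0.57 for S phase, from -0.25 to 0.09 for nephron progenitor, from 0.20 to 0.83 for induced nephron and from -1.30 to -0.59 for stroma genes. Of genes past the threshold, those reversed by the mean of log2 values were Bmp4 (0.35), Ccne1 (0.019), Spred2 (0.16) and Wfdc2 (0.79); with the score freed of genes detected, Ebf1 (-0.29), Spred2 (0.51), Trp53inp1 (0.00057) and Zfp36 (0.72); without the cell of few genes, Ebf1 (-0.32); and with the 9 low cells, Wfdc2 (0.25). Among genes described above that had not passed it, Cited1 (1.11), Jag1 (-1.39) and Tmem100 (-1.14) turned and passed with the score freed of genes detected. Without the highest cell of each side, 71 of 79 named genes past the threshold (the 5 score genes and Wnt4 included) stayed past it; the 8 others were Bmp4 (-0.44), Bmp7 (-0.94), Bmper (-0.99), Dlg1 (-0.65), Ebf1 (0.89), Ezh1 (-0.43), Spred2 (-0.59) and Wfdc2 (-0.07). No paired analysis was possible because the cells come from 1 pool and no test was made. Ranges over 15 cells a side are wide, and a gene at 0 in a cell may be expressed below what its unknown depth detects.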

Other observations

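Cilium and polarity genes, which no comparison above describes in full, had list medians under 0. Among all genes, 11.1% were higher and 11.2% lower. Primary cilium genes were 0 higher and 2 lower of 11 (median -0.23): Ift52 had a ratio of -1.84 and Bbs2, of the cargo complex of the cilium, -2.15. Ift122 (0.23) and Pkd2 (0.23) lay above 0. Spindle orientation and polarity genes were 0 higher and 2 lower of 6 (median -0.55), with Dlg1 at -1.51 and Llgl1 at -1.13, while Gpsm2, which links the spindle to the cell cortex, was at 0.75. Dlg1 without its highest cell of each side had a ratio of -0.65. By both measures, 1 cilium gene, Ift52, and 0 polarity genes were lower.

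Chromatin and stress lists were small, and of all genes 11.1% were higher and 11.2% lower. Polycomb genes were 1 higher and 1 lower of 11: Cbx2 at 1.03 and Ezh1 at -1.21. Genes of stress and the p53 response were 0 higher and 2 lower of 6, Trp53inp1 (-2.56) and Ddit3 (-1.98), both detected in no more than 7 of 15 cells on each side. Of 9 reference genes, Hprt alone passed (1.12), with 112 RPKM in the high and 23.5 in the low median, and the tubulin gene Tubb5 was at 0.69.

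The authors' second table holds 35 of the cells, of which 11 are high, 11 middle and 11 low here. Of its 450 genes, 316 were compared; 26 (8.23%) were higher and 41 (13.0%) lower in the high side. It lists 1 mitosis gene, Anapc4, with a signed fold of -5.34 in the authors' deposited table. By its header that fold sets Six2-only cells against cells with Six2 and Cited1, so it does not compare the high and the low side.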
